A study of Mus musculus with 2 samples.

Results

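The genes described here encode enzymes that carry glucose to lactate: Hk1, Hk2, Gpi1, Pfkl, Aldoa, Tpi1, Gapdh, Pgk1, Pkm and Ldha. They were chosen by gene symbol, and the 10 symbols matched 11 of the 26078 genes listed in the count matrix, because Aldoa carries 2 identifiers. The second Aldoa identifier (ENSMUSG00000114515) had 1 unique molecular identifier (UMI, 1 counted RNA molecule) in library 2 and 0 in library 1, and both were summed. The rule that chose the 10 genes used no measured value, but they were listed with earlier results of these data known.

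The cells came from the livers of 2 untreated male littermates aged 8 to 10 weeks, 1 Spta sph/sph mouse and 1 Spta wt/wt mouse, so each genotype is 1 animal. The mutation lies in alpha-spectrin, a protein of the red cell membrane skeleton, and mice homozygous for it have fragile red cells and hemolytic anemia. Nonparenchymal cells were pulled down with beads against F4/80, a macrophage surface protein, and RNA was counted from the 3' end in droplets. The study asked how taking up red cells changes what liver macrophages express.

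The libraries are known by number only, since nothing in the labels ties a number to a mouse, so library 2 is set against library 1 without a genotype. Library 2 held 9726 barcodes with 56947765 UMIs and library 1 held 8907 barcodes with 33099802 UMIs. After barcodes under 200 genes or above 20% mitochondrial UMIs were left out, 6942 cells of library 2 and 3488 of library 1 remained. Of these, 44 in library 2 (0.634%) and 815 in library 1 (23.4%) were shared barcodes, whose sequence was found over 5 times as deep in its counterpart library. Each value below is a sum over cells of 1 library, so no test between libraries or lineages was possible. Intervals are 95%, exact, and cover counting error only.

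Glycolysis splits glucose into pyruvate and yields ATP without oxygen, and lactate dehydrogenase then regenerates the cofactor the pathway uses. Red cells lose their mitochondria as they mature and afterwards live on glycolysis alone, while macrophages raise the pathway when activated or short of oxygen. Several steps have isozymes encoded by separate genes, and lineages differ in which one they use.

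Cells were sorted into lineages by marker genes, none of which is among the 10 enzymes, and each lineage is called by its markers alone ("Kupffer-like"). Kupffer-like cells (macrophages that reside in the sinusoids) numbered 3901 in library 2 and 2172 in library 1, and 30 and 490 of them had a shared barcode. Erythroid-like cells, the precursors of red cells, numbered 609 in library 2 and 159 in library 1. Since 158 of those 159 erythroid-like cells had a barcode sequence shared with library 2, they are not an independent sample, and erythroid-like cells are described from library 2. Droplets with markers of Kupffer-like cells plus another lineage (470 in library 2, 143 in library 1) were set aside. So were droplets with at least 20% globin UMIs that were gated other than as erythroid-like alone (1220 and 63). Their median Kupffer marker level was 346 in library 2 and 411 in library 1, per 10000 UMIs other than globin and mitochondrial ones. In Kupffer-like cells it was 412 and 323. Kupffer-like cells as described here thus all held under 20% globin UMIs. No doublet caller was used. Levels are UMIs per 1000000 UMIs of the same cells (CPM). A 3' UMI count does not scale with gene length, so levels of different genes can be set side by side, apart from differences in how well each 3' end is captured.

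Summed over the 10 genes, levels in library 2 were highest in monocyte- and other macrophage-like cells (3588 CPM, interval 3450 to 3730), neutrophil-like cells (3574 CPM, 3313 to 3849) and Kupffer-like cells (3489 CPM, 3466 to 3512). The intervals of these 3 phagocyte groups overlapped one another. Endothelial-like cells had 2729 CPM and T or natural killer-like cells 2599 CPM. Early erythroid-like cells had 2230 CPM (2188 to 2273), below the phagocyte groups. B-like cells had 2040 CPM, the lowest of the lineages that are not erythroid. In library 1 the sum was 2146 CPM in monocyte- and other macrophage-like cells. T or natural killer-like cells had 2112 CPM (1834 to 2420), conventional dendritic-like cells 1612 CPM and Kupffer-like cells 1526 CPM. Endothelial-like cells had 1013 CPM there, B-like cells 898 CPM and stellate- or fibroblast-like cells 884 CPM. Kupffer-like cells were thus not among the highest in library 1. In Kupffer-like cells Gapdh alone made up 29.5% of the sum for library 2, against 18.7% for library 1.

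**Figure D1:**
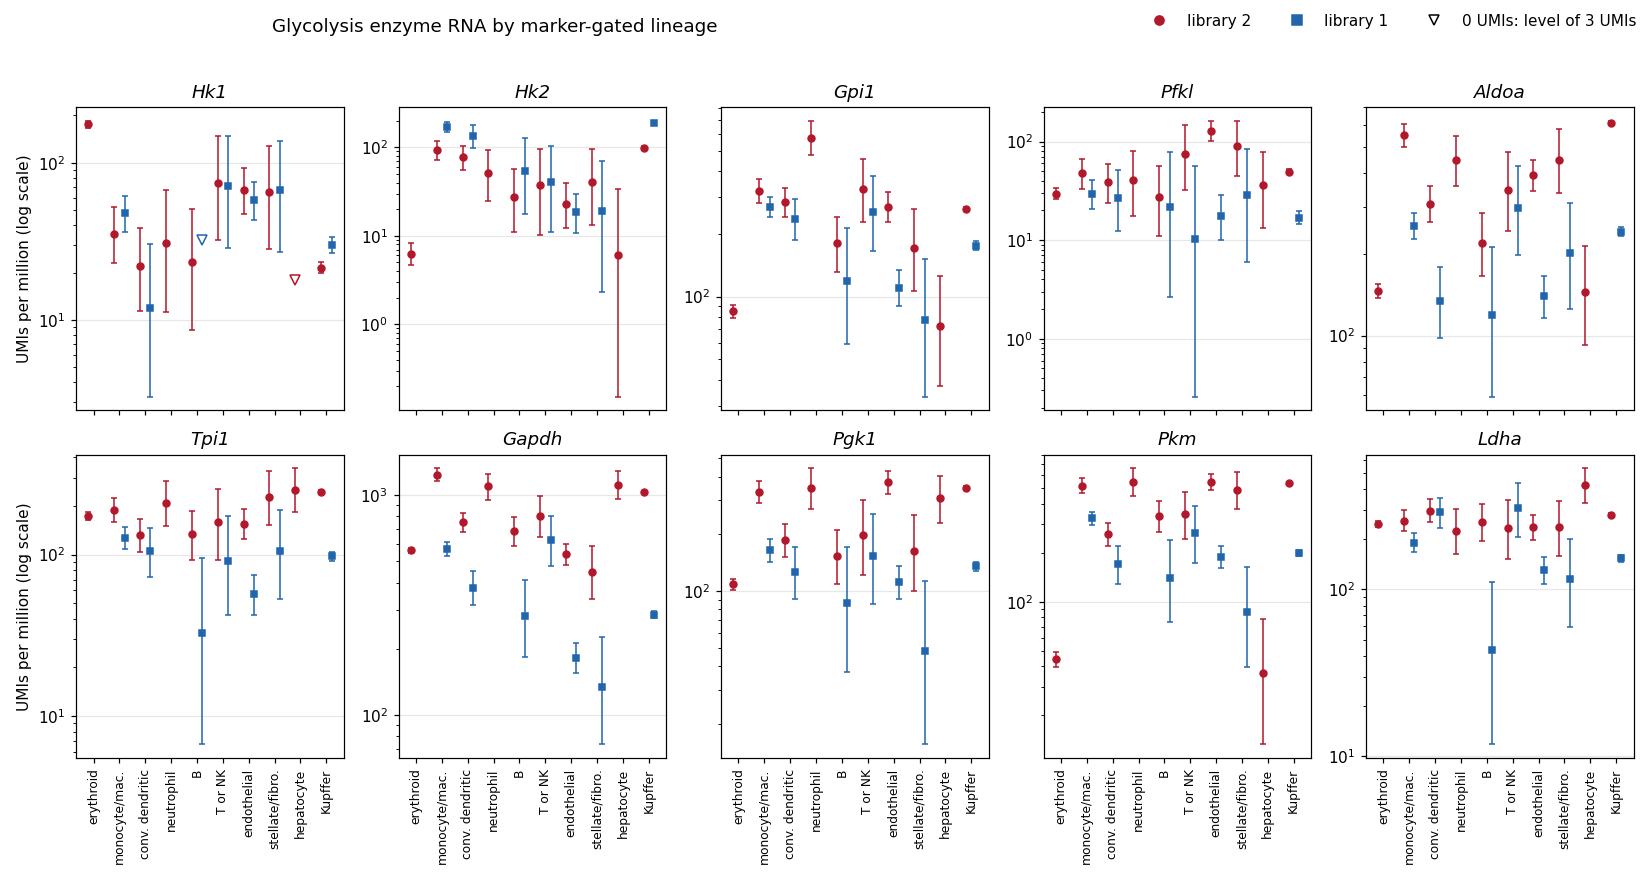
Level of each gene (CPM, log scale) by lineage, library 2 as red circles and library 1 as blue squares, with exact 95% Poisson intervals; open triangles mark the level of 3 UMIs where none was counted. Hk1 peaks in erythroid-like cells at 175.5 CPM, where Hk2 (6.30 CPM) and Pkm (44.3 CPM) are near their lowest, and most genes of Kupffer-like cells lie higher in library 2.

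At the first step, phosphorylation of glucose, the lineages differed in which of the 2 hexokinases was higher. Hk1 (chromosome 10, 62268855 to 62379908, minus strand, GRCm38), the hexokinase of red cells and brain, had 202 CPM (190 to 215) in early erythroid-like cells against 21.5 CPM (555 UMIs) in Kupffer-like cells of library 2, a 9.38-fold difference. Hk2 (chromosome 6, 82725025 to 82774454, minus strand), a hexokinase induced by insulin and by hypoxia in other tissues, had 7.92 CPM in early erythroid-like cells against 99.2 CPM in Kupffer-like cells, 12.5-fold lower. The order of the 2 genes was thus opposite in the 2 lineages. Hk1 made up 96.2% (94.9 to 97.3) of the Hk1 and Hk2 UMIs of early erythroid-like cells, 97.7% of middle ones and 96.2% of late ones. In Kupffer-like cells the Hk1 share was 17.8% (16.5 to 19.2) in library 2 and 13.7% (12.2 to 15.2) in library 1. Endothelial-like cells, which line the vessels, stood on the erythroid side, with an Hk1 share of 74.5% in library 2 and 75.7% in library 1. Monocyte- and other macrophage-like cells stood on the Kupffer side, at 27.5% in library 2 and 21.9% in library 1. Hk1 had 0 UMIs in the 31 hepatocyte-like cells of library 2, a sum in which 3 UMIs would be 18.1 CPM. Another hexokinase, Hk3, which is known from granulocytes and macrophages, held 36.0% of the UMIs of the 3 genes in Kupffer-like cells and 59.0% in neutrophil-like cells of library 2, and 0.982% in early erythroid-like cells.

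Gpi1 (chromosome 7, 34201330 to 34230336, minus strand), glucose-6-phosphate isomerase, was highest in neutrophil-like cells, at 579 CPM against 264 CPM in Kupffer-like cells of library 2. The neutrophil value did not overlap any other lineage, although it rests on 32 cells. Early erythroid-like cells had 125 CPM, 2.11-fold lower than Kupffer-like cells. Pfkl (chromosome 10, 77986947 to 78010083, minus strand), the liver form of phosphofructokinase and the pathway's committed step, had 43.3 CPM in early erythroid-like cells and 49.5 CPM in Kupffer-like cells, and the interval of their log2 ratio (-0.41 to 0.02) included 0. The isozyme mix differed more than the level of Pfkl did. The muscle form Pfkm made up 58.4% (54.5 to 62.3) of phosphofructokinase UMIs in early erythroid-like cells and 3.54% (2.81 to 4.39) in Kupffer-like cells of library 2.

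Aldoa (chromosome 7, 126795234 to 126800751, minus strand) encodes the aldolase of muscle and red cells, which splits the 6-carbon sugar. It had 205 CPM in early erythroid-like cells against 614 CPM in Kupffer-like cells of library 2, 2.99-fold lower. Tpi1 (chromosome 6, 124810586 to 124814296, minus strand), which interconverts the triose phosphates, had 262 CPM in early erythroid-like cells and 245 CPM in Kupffer-like cells, a log2 ratio of 0.10 (0.01 to 0.18). Its direction turned with a size factor in place of the total (log2 ratio -0.26). Across lineages of library 2 it ran from 253 CPM in hepatocyte-like to 132 CPM in conventional dendritic-like cells, with every neighbour in that order overlapping the next.

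Gapdh (chromosome 6, 125161715 to 125166467, minus strand), the dehydrogenase that makes the pathway's NADH, was the most abundant of the 10 in early erythroid-like cells (793 CPM) and in Kupffer-like cells (1029 CPM) of library 2. The log2 ratio between them was -0.38 (-0.43 to -0.33). Pgk1 (chromosome X, 106187100 to 106203699, plus strand), which makes the first ATP, had 146 CPM in early erythroid-like cells against 348 CPM in Kupffer-like cells, 2.37-fold lower. The mouse genome holds processed copies of Gapdh and of several other members, and how reads that fit such copies were assigned bears on these counts.

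Pkm (chromosome 9, 59656368 to 59679375, plus strand), the pyruvate kinase of most tissues, was low in erythroid-like cells as Hk2 was, but not in endothelial-like cells, where Hk2 had 23.0 CPM and Pkm 546 CPM. Pkm had 48.6 CPM (42.5 to 55.2) in early erythroid-like cells against 539 CPM in Kupffer-like cells of library 2, 11.1-fold lower, and 36.1 CPM in hepatocyte-like cells. In all 7 other lineages shown for library 2 it lay between 261 and 548 CPM. The liver and red cell isozyme Pklr held 60.3% (56.2 to 64.3) of pyruvate kinase UMIs in early erythroid-like cells, against 0.173% (0.111 to 0.257) in Kupffer-like cells. The splice forms of Pkm cannot be told apart in 3' counts. Ldha (chromosome 7, 46841475 to 46855627, plus strand), which turns pyruvate into lactate, was higher in early erythroid-like cells, at 396 CPM against 280 CPM, a log2 ratio of 0.50 (0.43 to 0.57). Ldhb, the heart isozyme, had 0 of the 1901 Ldha and Ldhb UMIs in early erythroid-like cells, an exact interval of up to 0.194%. It reached 13.7% in neutrophil-like and 7.59% in endothelial-like cells of library 2.

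**Figure D2:**
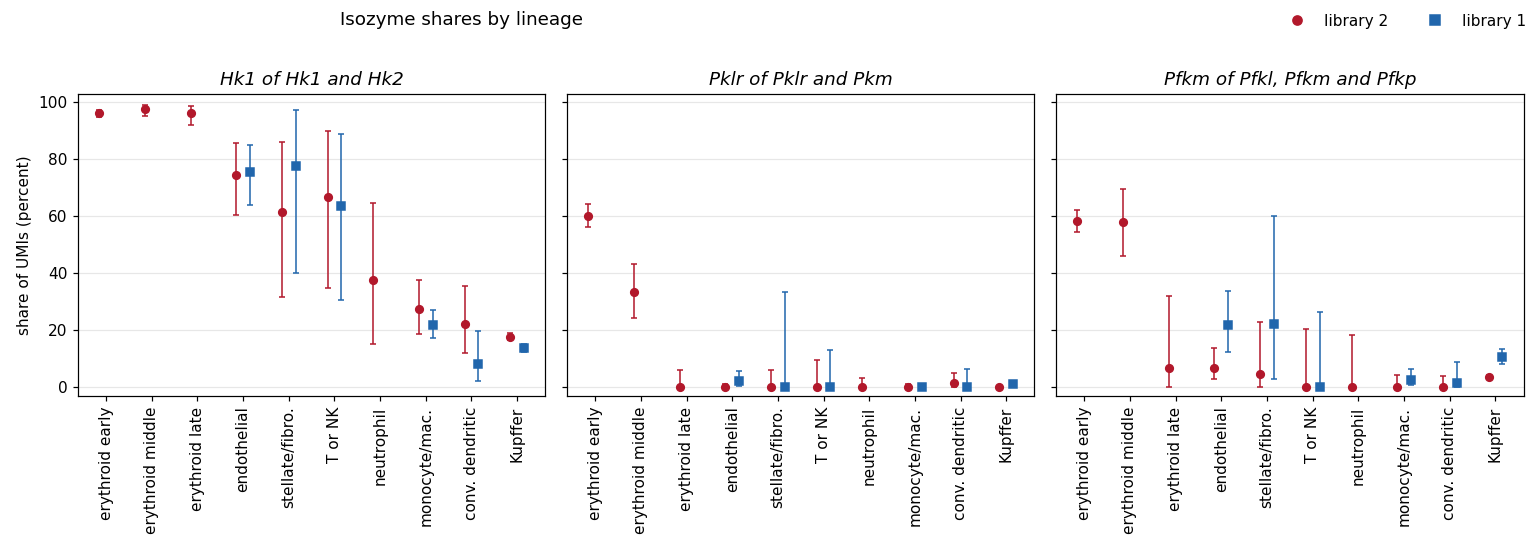
Share of UMIs (percent) held by Hk1, Pklr and Pfkm among the isozymes named above each panel, by lineage, library 2 as red circles and library 1 as blue squares, with exact 95% binomial intervals. The early erythroid-like cells hold 96.2% Hk1, 60.3% Pklr and 58.4% Pfkm, and Kupffer-like cells of library 2 hold 17.8%, 0.173% and 3.54%.

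Over the 10 genes, 1 was at least 2-fold higher (Hk1) and 5 at least 2-fold lower (Hk2, Gpi1, Aldoa, Pgk1 and Pkm) in early erythroid-like cells than in Kupffer-like cells of library 2. Of the 4155 genes with at least 30 UMIs and 50 CPM in either sum, 37.3% were at least 2-fold higher and 30.7% at least 2-fold lower, and 9 of the 10 passed that minimum. The median log2 ratio was -0.73 for the 10 genes and 0.40 for all genes tested. The lineages are thus broadly different, and the count for the enzymes has to be read against that background. It also depends on the Kupffer-like cells used. Those of library 1 had 175 CPM of Gpi1, 243 of Aldoa and 135 of Pgk1, nearer to the early erythroid-like values (125, 205 and 146). Hk2 (190 CPM) and Pkm (199 CPM) lay above the early values there too, and Hk1 (30.1 CPM) below. Pfkl, Tpi1, Gapdh and Ldha (16.9, 97.9, 285 and 153 CPM) lay below the early values (43.3, 262, 793 and 396). Of the 20 listed other isozymes and steps, 6 passed the minimum, 2 were higher and 3 lower. Pgam1, the mutase after Pgk1, had 76.0 CPM in early erythroid-like cells against 339 CPM in Kupffer-like cells, and Slc16a1, a lactate transporter, had 122 CPM against 6.52 CPM.

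Within the erythroid-like cells of library 2, stages were set by the share of globin UMIs: 247 early cells under 20%, 188 middle cells from 20 to 50% and 174 late cells with 50% or more. The median depth per cell was 18775, 8414 and 8263 UMIs in that order. The 10 genes summed to 43.3 UMIs per early cell, 7.90 per middle cell and 3.29 per late cell. As CPM of all genes they summed to 2230, 839 and 374. Since globin defined the stages and made up 64.3% of late UMIs, levels were also scaled to the UMIs of genes other than globin (non-globin CPM), on which the sums were 2330, 1255 and 1048.

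Of the 10 genes, 9 were at least 2-fold lower in late than in early cells as CPM of all genes and 0 at least 2-fold higher, beside 73.6% and 6.56% of the 3093 genes tested, and 7 of the 10 passed the minimum. In non-globin CPM, 5 were at least 2-fold lower, 4 of them past the minimum, beside 41.9% of genes. In the other direction 1 was at least 2-fold higher, and it did not pass the minimum, beside 18.0%. The median log2 ratio on that second scale was -0.97 for the 10 genes and -0.67 for all genes tested. Both counts therefore stood near what the other genes did.

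The members parted from one another in non-globin CPM. Ldha had 414 in early, 60.0 in middle and 49.4 in late cells, so most of the difference lay between early and middle cells (log2 ratio -2.79, -3.15 to -2.44). Tpi1 followed with 274, 97.2 and 58.5 non-globin CPM, and Gapdh with 828, 491 and 272. Pfkl had 3 UMIs in late cells, for a late over early log2 ratio of -3.05 (-5.33 to -1.48). Hk1 went the other way, with 211 in early, 253 in middle and 278 in late cells, a late over early log2 ratio of 0.40 (0.14 to 0.64), while as CPM of all genes it was -1.03. The non-globin intervals of Hk1 in middle and late cells overlapped. Per cell, Hk1 had 3.93 UMIs in early, 1.60 in middle and 0.874 in late cells. Hk1 and Gapdh were the most abundant of the 10 in late cells, with 26.5% and 26.0% of the UMIs of the 10, and their intervals overlapped. Of the isozymes that set early cells apart, Pklr and Pfkm were at or near 0 in late ones. Pklr had 354 UMIs in early, 34 in middle and 0 in late cells, and Pfkm had 372, 43 and 1. These counts are not scaled, and the 3 sums held 4799177, 1769881 and 1532261 UMIs of all genes. Hk1 still made up 96.2% of the Hk1 and Hk2 UMIs of late cells. Bpgm, which makes the 2,3-bisphosphoglycerate of red cells from a glycolytic intermediate, was 15.6 CPM in early, 44.6 CPM in middle and 425.5 CPM in late cells.

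Kupffer marker RNA moved with the stages, and all 12 listed markers had UMIs in each. Its median was 14.5, 44.8 and 77.7 per 10000 UMIs other than globin and mitochondrial ones in early, middle and late cells, against 412 in Kupffer-like cells. Summed over cells it was 4.06% of the Kupffer-like level in early, 8.78% in middle and 16.5% in late cells. If that RNA brought the enzymes along in the ratio of Kupffer-like cells, late cells would carry 104 CPM of Pkm on that scale (without globin and mitochondrial UMIs), and 121 was measured. For Aldoa the same figures were 119 carried and 138 measured, for Hk2 19.2 carried and 12.5 measured, for Ldha 54.2 carried and 56.3 measured. Hk1 differed, with 4.17 carried and 317 measured, and Gapdh lay between, with 199 carried and 311 measured. In early cells the carried amount was 25.7 of 54.9 for Pkm and 4.73 of 8.96 for Hk2. The higher non-globin Pkm value of late over early cells (log2 ratio 1.06, 0.62 to 1.48, against -0.36 as CPM of all genes) thus stands beside a carried amount of like size, and the part of such RNA in it was not tested.

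**Figure D3:**
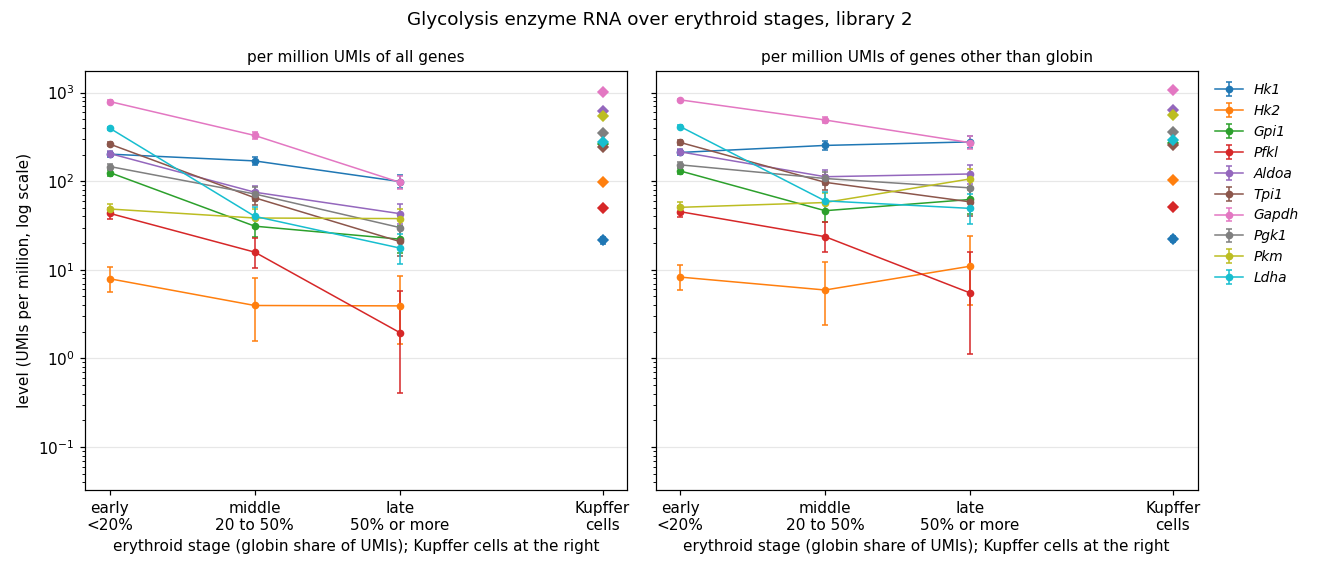
Level of each gene (log scale) in early, middle and late erythroid-like cells of library 2 and, as diamonds, in Kupffer-like cells, as CPM of all genes (left) and non-globin CPM (right); bars are exact 95% Poisson intervals. On the right Hk1 is higher in late than in early cells (211, 253 and 278 by stage), with overlapping middle and late intervals. Ldha is high in the early stage alone (414, 60.0 and 49.4).

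Set against library 1, the Kupffer-like cells of library 2 had more RNA of the pathway: the 10 genes summed to 3489 CPM in library 2 and 1526 CPM (1501 to 1550) in library 1, a ratio of 2.29. Every gene from Gpi1 to Ldha was higher in library 2, and both hexokinases were lower. Of the 10 genes, 6 were at least 2-fold higher and 0 at least 2-fold lower, beside 3.08% and 6.36% of the 3507 genes tested. The median log2 ratio was 1.33 for the 10 genes and -0.24 for all genes tested, and -0.17 for genes with at least 50 CPM in both sums. Of the 10 genes, 8 passed the minimum, and 5 of the 6 higher ones were among them.

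Gapdh differed most, at 1029 CPM in library 2 against 285 CPM in library 1 (log2 ratio 1.85, 1.79 to 1.91). Pfkl, the least abundant of the higher genes, had 49.5 CPM in library 2 against 16.9 CPM in library 1 (1.55, 1.31 to 1.79). Its share of phosphofructokinase UMIs was 57.1% in library 2 and 30.7% in library 1. Another isozyme, Pfkp, held 39.3% in library 2 and 58.8% in library 1, so the ratio of Pfkl is not that of the whole step. Pkm had 539 CPM in library 2 against 199 CPM in library 1, a log2 ratio of 1.44. Pfkl, Gapdh and Pkm act at the committed step, at the dehydrogenase and at the step that yields pyruvate. Pgk1 had 348 CPM against 135 CPM, Aldoa 614 CPM against 243 CPM and Tpi1 245 CPM against 97.9 CPM, with log2 ratios of 1.37, 1.34 and 1.32. Ldha and Gpi1 stayed under 2-fold, at 280 CPM in library 2 against 153 CPM in library 1 (log2 ratio 0.87) and 264 CPM against 175 CPM (0.59). Hk2, in contrast, had 99.2 CPM in library 2 against 190 CPM in library 1 (-0.94, -1.03 to -0.85). Hk1 had 21.5 CPM in library 2 against 30.1 CPM in library 1 (-0.48, -0.69 to -0.27).

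The shared barcodes lay on one side of this comparison. The 490 Kupffer-like cells of library 1 with a shared barcode summed to 4129 CPM of the 10 genes, nearer to the library 2 sum than to that of library 1. Without shared barcodes the sums were 3490 CPM in library 2 and 1433 CPM in library 1, a ratio of 2.44, and Gapdh had a log2 ratio of 2.08 and Hk2 of -0.98. With shared barcodes kept, the ratio under 2000 UMIs per cell was 1.23, with 0 of the 10 genes at 2-fold. In bins of depth without shared barcodes, the ratio of the sums was 2.48 under 2000 UMIs per cell, 2.44 from 2000 to 5000, 2.18 from 5000 to 10000 and 2.40 above. In bins of mitochondrial share, also without shared barcodes, it was 2.46 from 5 to 10%, 2.34 from 10 to 15% and 2.24 from 15 to 20%, and library 1 had 6 cells under 5%, too few for a value. Among cells thinned to 2000 UMIs each, the median cell had 6 UMIs of the 10 genes in library 2 (2627 cells, quartiles 4 and 9) against 3 in library 1 (1335 cells, quartiles 1 and 4), with 1274 and 837 shallower cells left out. Without shared barcodes the ratio thus lay between 2.18 and 2.48 in these bins. Globin UMIs also moved with the library, at 3.19% of UMIs of these cells in library 2 against 0.137% in library 1, and in non-globin CPM the log2 ratio of Gapdh was 1.89 and that of Hk1 -0.44. In bins of globin share the ratio of the sums was 2.47 under 1% (1660 cells in library 2 and 1935 in library 1), 0.958 from 1 to 5% (1625 cells in library 2 and 119 in library 1) and 1.04 from 5 to 20% (616 cells in library 2 and 118 in library 1), with 0 of the 10 genes at 2-fold in the upper 2 bins. Of the library 1 cells in those upper bins, 113 of 119 and 114 of 118 had shared barcodes. Without shared barcodes the ratio was 2.57 under 1%, and the 6 and 4 library 1 cells left in the upper bins were too few for a value, so globin-carrying Kupffer-like cells could not be compared between the libraries.

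**Figure D4:**
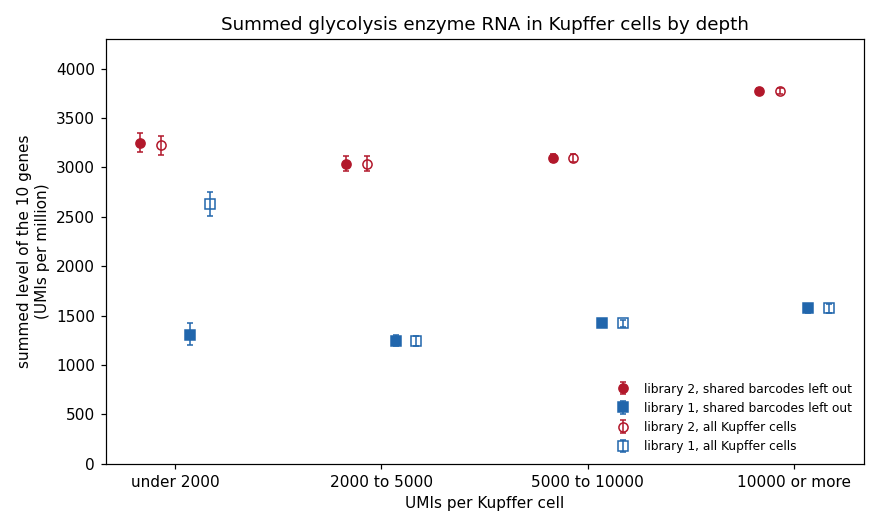
Summed level of the 10 genes (CPM) in Kupffer-like cells by UMIs per cell, library 2 as red circles and library 1 as blue squares, filled without shared barcodes and open with them; bars are exact 95% Poisson intervals. Library 2 lies above library 1 in all 4 bins, by 2.18 to 2.48 times without shared barcodes, and the shared barcodes raise library 1 in the lowest bin.

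Steps of the pathway outside the 10 genes differed likewise in Kupffer-like cells. Pgam1 had 339 CPM in library 2 against 92.7 CPM in library 1 (log2 ratio 1.87), and Eno1, the enolase that follows it, had 223 CPM against 74.9 CPM (1.58). Slc16a3, the lactate exporter of glycolytic cells, had 51.1 CPM against 12.6 CPM (2.03). Among the 20 other isozymes and steps, 5 passed the minimum, and 2 of them, Pgam1 and Eno1, were at least 2-fold higher. Hk3 (-0.65) and Adpgk, an ADP-dependent glucokinase (-0.92), were nearer to Hk2 than to the members from Gpi1 to Ldha. Hk2, Hk3 and Adpgk, which act on glucose itself, were therefore lower in library 2, while Pgam1, Eno1 and the members from Gpi1 to Ldha were higher. Of 7 gluconeogenesis genes, 2 passed the minimum, G6pc (-2.34) and Pck1 (-0.97), both lower in library 2. G6pc and Pck1 are hepatocyte genes, and the 12 listed hepatocyte markers, all with UMIs in Kupffer-like cells, summed to 1510 CPM in library 2 against 1938 CPM in library 1. The part of hepatocyte RNA in these values was not tested.

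Pathways that share intermediates with glycolysis differed less. Of 7 pentose phosphate genes, 5 passed the minimum, and 0 reached 2-fold, with log2 ratios from 0.22 (Tkt) to 0.70 (G6pdx). Hif1a, the oxygen-regulated transcription factor that acts on many glycolysis genes, had 71.0 CPM in library 2 against 88.0 CPM in library 1 (-0.31). Of 15 hypoxia response genes outside glycolysis, 5 passed the minimum and 2 were at least 2-fold higher, Mif (1.76) and Ddit4 (1.44), while P4ha1 (0.07) and Egln1 (-0.24) were not.

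The same contrast was taken in the other lineages with both libraries. In endothelial-like cells, 125 in library 2 and 278 in library 1, 7 of the 10 genes reached 2-fold in favour of library 2 and 0 in favour of library 1, beside 5.34% and 6.99% of genes, and the median log2 ratio was 1.47 against -0.14 for all genes. Pfkl differed most there, at 129 CPM (73 UMIs) in library 2 against 17.5 CPM (16 UMIs) in library 1, a log2 ratio of 2.88 (2.09 to 3.76). Hk1 (0.21, -0.43 to 0.84) and Hk2 (0.31, -0.86 to 1.44) had intervals that included 0. Of the 15 hypoxia response genes, 11 passed the minimum and 4 were at least 2-fold higher, among them Bnip3, a mitophagy receptor, at 154 CPM in library 2 against 27.3 CPM in library 1, and Egln3, an oxygen-sensing hydroxylase, with 46 UMIs against 1 (log2 ratio 6.22, 3.67 to 11.55). Epas1, the oxygen-regulated factor of endothelium, had a log2 ratio of -0.09 (-0.30 to 0.11), and Hif1a had 122 CPM in library 2 and 122 CPM in library 1.

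In monocyte- and other macrophage-like cells, 3 of the 10 genes reached 2-fold in favour of library 2, beside 2.73% of genes: Gapdh (1.13), Aldoa (1.12) and Pgk1 (1.02). Hk2 was again lower, at 93.4 CPM in library 2 against 170 CPM in library 1 (-0.87, -1.29 to -0.46). Conventional dendritic-like cells, 69 in library 2 and 37 in library 1, had 1 of the 10 at least 2-fold higher, beside 3.27% of genes. It was Aldoa (1.20, 0.72 to 1.71), and Hk2 lay at -0.80 (-1.44 to -0.16). B-like cells had 4 higher, beside 13.8%. T or natural killer-like cells had 1, beside 8.20%, and it did not pass the minimum. Stellate- or fibroblast-like cells had 9, beside 14.1%, though 3 of the 10 passed the minimum there. Aldoa, Gapdh, Pgk1 and Pkm had intervals above 0 in all 4 lineages drawn in the plot of library ratios. Whether the ratio differs between lineages was not tested.

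Kupffer marker RNA moved with the library in these lineages too. Its median per 10000 UMIs was 58.3 in library 2 against 13.9 in library 1 for endothelial-like cells and 51.4 against 17.0 for monocyte- and other macrophage-like cells. In endothelial-like cells of library 2 it summed to 14.4% of the Kupffer-like level and would carry 8.38 CPM of Pfkl without globin and mitochondrial UMIs, and 148 was measured, and for Pgk1 the figures were 58.8 and 428. For Hk2 they were 16.8 carried and 26.4 measured. Apart from Hk2, the measured endothelial values of library 2 were at least 3 times the carried ones. For Gapdh 174 was carried and 617 measured. In endothelial-like cells of library 1 the figures were 20.6 carried and 210 measured for Gapdh, 9.74 and 129 for Pgk1 and 1.22 and 20.2 for Pfkl. The part of such RNA in the ratios between libraries was not tested.

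**Figure D5:**
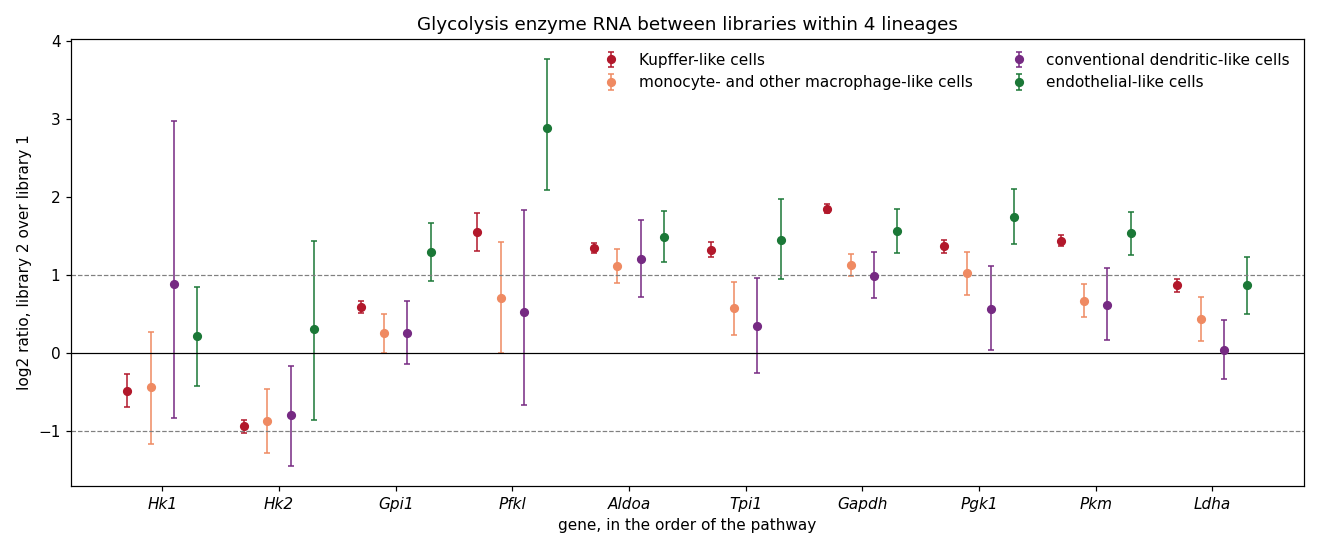
Log2 ratio of each gene, library 2 over library 1, in Kupffer-like, monocyte- and other macrophage-like, conventional dendritic-like and endothelial-like cells, with exact 95% intervals and dashed lines at 2-fold. Gapdh lies at 1.85 in Kupffer-like and 1.56 in endothelial-like cells, and Hk2 at -0.94 in Kupffer-like cells and 0.31 in endothelial-like cells.

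Because the members from Gpi1 to Ldha differed together, the sequence before their start sites was read. RefSeq (GRCm38.p6) gave 15 windows for the 10 genes, each from 250 bases before to 50 bases after an annotated start. The core letters bound by hypoxia-inducible factors, ACGTG or GCGTG on either strand, stood in 10 of the 15 windows (66.7%). The share was 43.8% of the 32851 windows of all genes. By gene they stood in 8 of the 10, for which no share over all genes was taken. The Aldoa windows chr7:126799129-126799428 and chr7:126799205-126799504 overlap and hold the same match, which counts in both. ACGTG alone stood in 53.3% of the members' windows against 19.6% of all. The erythroid GATA letters AGATAA or TGATAA stood in 2 of 15 windows (13.3%) against 18.6% of all. The members' windows held 51.3 to 67.3% G and C, and the part of base composition in these shares was not tested. A match is a run of letters and not a measured binding site. Windows are shown for Ldha, which has the most matches, for Pgk1, which differed between libraries, and for the 2 hexokinases, which went the other way, with matches of ACGTG or GCGTG on either strand in capitals.
Ldha, chr7:46845554-46845853, plus strand: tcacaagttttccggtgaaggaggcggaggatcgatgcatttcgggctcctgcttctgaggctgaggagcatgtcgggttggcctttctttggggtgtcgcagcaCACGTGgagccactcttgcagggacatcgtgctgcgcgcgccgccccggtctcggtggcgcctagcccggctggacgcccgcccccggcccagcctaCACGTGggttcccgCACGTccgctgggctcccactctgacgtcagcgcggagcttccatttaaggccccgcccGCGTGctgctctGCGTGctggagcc
Pgk1, chrX:106186850-106187149, plus strand: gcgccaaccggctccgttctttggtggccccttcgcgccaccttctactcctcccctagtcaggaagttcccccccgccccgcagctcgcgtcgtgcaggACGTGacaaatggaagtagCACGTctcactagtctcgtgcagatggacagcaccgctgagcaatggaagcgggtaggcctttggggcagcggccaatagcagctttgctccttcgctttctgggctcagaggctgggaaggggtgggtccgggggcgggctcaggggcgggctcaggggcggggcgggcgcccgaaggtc
Hk2, chr6:82774405-82774704, minus strand: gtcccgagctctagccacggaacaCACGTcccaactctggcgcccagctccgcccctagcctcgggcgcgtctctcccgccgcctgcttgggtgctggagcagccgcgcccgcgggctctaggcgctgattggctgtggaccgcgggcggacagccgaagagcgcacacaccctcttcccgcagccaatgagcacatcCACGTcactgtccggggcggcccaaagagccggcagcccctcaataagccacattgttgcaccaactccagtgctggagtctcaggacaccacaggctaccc
Hk1, chr10:62340372-62340671, minus strand: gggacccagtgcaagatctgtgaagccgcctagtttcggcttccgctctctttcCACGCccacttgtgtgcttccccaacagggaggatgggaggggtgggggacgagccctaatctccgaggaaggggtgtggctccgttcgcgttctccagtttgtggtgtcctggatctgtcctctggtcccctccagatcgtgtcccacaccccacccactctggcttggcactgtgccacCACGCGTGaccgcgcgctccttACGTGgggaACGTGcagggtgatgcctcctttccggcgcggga
The Ldha window holds 7 matches, the Pgk1 and Hk2 windows 2 each and the Hk1 window 5. Overlapping matches on opposite strands, such as those in CACGTG, are counted separately. The other Hk1 window (chr10:62379859-62380158), the windows of Gpi1 and Tpi1, and windows of Aldoa (chr7:126800398-126800697) and Pkm (chr9:59656326-59656625) hold 0. The letters thus stood before genes that were higher in library 2 (Ldha, Pgk1) and before the hexokinases that were lower, and not in the window of Tpi1, which was higher.

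Across the 17 sums of a lineage in a library, the genes whose level (log2 of CPM + 10) followed that of the summed 10 most closely were Eno1 (Pearson r 0.85), Pgd (0.82), Gng5 (0.82) and Pgam1 (0.81), among 8166 genes ranked. The next 6 were Spg21, Txn1, Cript, Cox4i1, Gsr and Ndufb5. Within the 10, Gapdh and Pgk1 followed each other (0.84), as did Gpi1 and Pkm (0.84), while Hk1 and Hk2 did not (-0.22). These sums, among which erythroid-like cells of library 1 were not included, share libraries and a common total, so the values are descriptions only.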

How the data were processed

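The deposited matrix holds UMI counts (whole numbers per gene and barcode) of both libraries, which the authors made, and Cell Ranger 3.0.1 is named in the file headers. GRCm38.p5 and R 3.6.1 come from the submitters' processing notes, and the annotation release is not given in the sources used here. Gene positions were looked up in a GENCODE annotation of GRCm38.

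Cells were gated on marker UMIs per 10000 UMIs other than globin and mitochondrial ones. Markers seen in over 25% of either library's kept cells were dropped, apart from Kupffer markers. Kupffer-like cells needed 150 per 10000 from at least 3 markers. Other lineages needed at least 3 UMIs of 2 markers, 15 to 50 per 10000 by lineage, fewer Kupffer markers than 150, and a second lineage under 0.5 of the first. These thresholds were chosen after the data had been seen. The members and gene lists were chosen with earlier results of these data known. One listed gene is not reported here.

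UMIs were summed per lineage and library (at least 20 cells) and divided by the total. Intervals are exact: Poisson for CPM, Clopper-Pearson for shares, conditional for ratios. A count of 0 was set to 3 UMIs in ratios. Counts of the 10 genes are at 2-fold and include genes under any minimum. Shares over all genes are at 2-fold among genes with at least 30 UMIs and 50 CPM in 1 of the 2 sums. All 10 members are named, other listed genes where they pass that minimum in the comparison or are isozymes of a member, and the 10 genes of most similar pattern. Alternatives were other totals, size factors, mitochondrial, gene and depth filters, shared barcodes left out, a stricter gate and Leiden clusters (scanpy 1.11.5, leidenalg 0.10.2). The counting and ratio steps were tested on simulated data. Scripts ran in python 3.11.15 with pandas 2.3.3, scipy 1.17.1 and numpy 2.4.6.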

Additional observations from a re-analysis of the deposited data

Results flagged for a closer look

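Over 6 lineages other than the erythroid-like one, 59 log2 ratios of a gene to Kupffer-like cells had a value in both libraries, and 21 of them had opposite signs in the libraries. For 3 of the 21 the counting intervals of both libraries excluded 0, and whether the libraries differ was not tested. The log2 ratio of Gapdh in conventional dendritic-like over Kupffer-like cells was -0.45 in library 2 and 0.41 in library 1. For Gapdh in T or natural killer-like over Kupffer-like cells it was -0.36 in library 2 and 1.13 in library 1. For Tpi1 in monocyte- and other macrophage-like over Kupffer-like cells it was -0.37 in library 2 and 0.38 in library 1.

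The 10 genes were also counted in the barcodes left out for over 20% mitochondrial UMIs. They summed to 1821 CPM in the 2782 such barcodes of library 2 and to 836.6 CPM in the 5345 of library 1, above the 0.269 CPM in library 2 and 0.159 CPM in library 1 that 3 UMIs would give. Scaled to UMIs that are not mitochondrial these sums were 2686 in library 2 and 1506 in library 1.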

How the results depend on the processing

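Over 9 alternatives, 7 of 440 recomputed single-gene log2 ratios changed sign, 2 of them with a reported interval that excluded 0 and 5 with one that included 0. The 2 were Hk1 in late over early erythroid-like cells, at 0.47 without globin and mitochondrial genes in the total, and Tpi1 in early erythroid-like over Kupffer-like cells, at -0.26 with a size factor. The 5 were Pkm in late over early cells under 3 alternatives (0.04 to 1.14, against -0.36), Hk2 in the same comparison without globin and mitochondrial genes (0.48, against -1.02), and Hk2 in endothelial-like cells of library 2 over library 1 among cells with at least 5000 UMIs (-0.39, against 0.31). In all, 369 of the 440 stayed within their counting interval. With a size factor 25 stayed within it and 24 left it, not counting the sign change of Tpi1 above. No other alternative moved more than 10. Without globin and mitochondrial genes, 1 of the 10 genes was at least 2-fold higher and 4 at least 2-fold lower in late over early cells. In Kupffer-like cells of library 2 over library 1, 1 gene was at least 2-fold lower among cells with at most 10% mitochondrial UMIs, and 1 among cells with at least 5000 UMIs, a filter added after the data had been seen. The cause was not tested. Log2 ratios there ranged from 1.66 to 2.11 for Gapdh and from -1.02 to -0.77 for Hk2. A size factor implies a median shift of all genes of -0.17 for this comparison and of 0.35 for early erythroid-like over Kupffer-like cells. No paired analysis was possible because each genotype is 1 mouse and no library is tied to one. Lineages of few cells limit precision, such as the hepatocyte-like one of library 2 (31 cells).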
